A study of Arabidopsis thaliana with 24 samples.

Results

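The comparison was between roots of Arabidopsis thaliana wild-type plants held for 3 h in 150 mM NaCl and roots of wild-type plants without added salt. It rested on 6 of the series' 24 arrays, chosen by their titles: 3 arrays of the salt group and 3 of the control group. Each array read 22810 probe sets on the Affymetrix ATH1 design, a 1-colour microarray on which a gene is represented by a set of short probes. The 64 Affymetrix control probe sets were set aside, and 22746 were compared. All plants were of the Col-0 ecotype, were grown in hydroponic culture under short days and were 6 weeks old, although the tissue label speaks of seedlings. The other 18 arrays covered wild-type roots treated with the same salt for 1 h or 6 h and the bzip1/bzip53 double knockout, in the same background, untreated and at each of the 3 times. They entered the estimate of the spread between arrays, and the 1 h, 6 h and mutant groups are used below where the 3 h response was set against them. The arrays of a group are called biological replicates, and nothing states how many plants or culture vessels stood behind each. Each p-value thus reflects only the spread between arrays within groups, pooled over the 8 groups, and not a known number of plants. Salt-treated roots were harvested together near the end of the light period, and the protocol gives no separate time for the control roots.

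High salt acts on roots in 2 ways. Water is drawn out of the cells within minutes, and sodium then enters and must be pumped into the vacuole or out of the root. The osmotic part sets off calcium signals and the hormone abscisic acid, which turn on genes for protective hydrophilic proteins, for chaperones and for detoxifying enzymes, while cell elongation and root hair growth slow. Bulk root RNA averages all cell types of the organ.

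All values are log2 signals after robust multi-array averaging (RMA), the method that background-corrects, equalises and summarises the probes. A probe set was called when the adjusted p of limma's moderated two-sided test, with Benjamini-Hochberg adjustment over the 22746 probe sets, was under 0.05. Differences are 3 h salt minus control on the log2 scale, with their standard error (SE). Where a group mean lay under a log2 level of 5, close to the background, the size of a difference has no exact value and is called apparent. Array medians were alike, and pairs of control arrays correlated at 0.985 to 0.996 over all probe sets, pairs of salt arrays at 0.993 to 0.996.

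Control array 3 stood apart from the other controls. On it, 370 probe sets (1.63%) lay more than 1 log2 unit above both other control arrays, against 0 on control array 1 and 1 on control array 2. The median level of these 370 was 6.57 and 6.83 on control arrays 1 and 2 and 8.90 on control array 3, beside 9.0, 9.89 and 9.49 on the 3 salt arrays. Of the 370, 244 were called higher after 3 h, 2 lower and 124 neither. Their median difference was 1.76 with all arrays and 2.54 without control array 3, when 326 were called higher. What set this array apart was not tested, and members of this set named below are given with and without it. Of the cell type markers looked for, few had a probe set named in the gene table: 2 of 6 for root hairs, 1 of 3 for the pericycle, 1 of 15 for green tissue and 0 of those for endodermis (9), xylem (8), phloem (4) and root cap and meristem (6). The identity of the tissue could therefore be checked only in part. RCA, which encodes the activase of the carbon-fixing enzyme of leaves, read 6.23, 5.95 and 6.00 in the controls and 6.08, 7.15 and 6.18 after salt (0.41, adjusted p = 0.167), with no call. Over 9 measured nuclear photosynthesis genes the control means ran from 3.59 to 8.12, the highest that of LHCB4.1, a light-harvesting protein gene. GI, a clock gene with a strong daily rhythm, read 9.74, 9.68 and 9.78 in the controls and 9.67, 9.56 and 9.55 after salt (-0.14, adjusted p = 0.171).

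After 3 h of salt the calls took in 8159 probe sets (35.9%), 2812 with a rise (12.4%) and 5347 with a fall (23.5%), while 9971 had an unadjusted p under 0.05. The rises were fewer and larger, the falls more numerous and smaller. The median rise among called probe sets was 0.76 and the median fall -0.48. A fold of at least 2 was reached by 1837 called probe sets (8.08%), of which 1075 were higher (4.73%) and 762 lower (3.35%). Among the rises 177 exceeded 3 log2 units and 70 exceeded 4, whereas 1 fall exceeded 3 units. The 3 salt arrays lay wholly above or below the 3 control arrays in 11318 probe sets (49.8%), with or without a call. The median of all differences was -0.08. The share of calls varied with the level in control roots. Among probe sets with a control mean of 5 to 7, 18.2% were called higher and 23.4% lower. Between 9 and 11 the shares were 11.2% and 40.5%. Of the 611 probe sets with a control mean above 11, only 6 rose and 52 fell with a fold of at least 2. At the other end, 562 of the called rises (20%) started from a control mean under 5. Counts of rises and falls from control in the gene lists below are to be read beside the 12.4% and 23.5% of all probe sets. Measured members of a list are those matched by name. A gene given only a locus code, with no matching name, is not counted in its family, and 11808 genes had a locus code only. The counts therefore do not cover whole families.

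**Figure D1:**
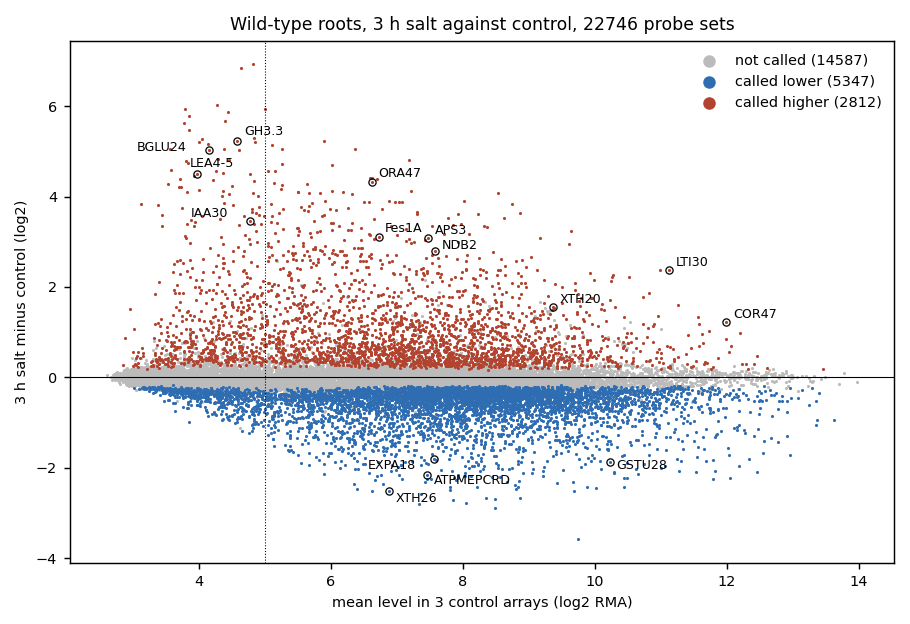
Difference between 3 h salt and control (log2, vertical axis) against the mean level in the 3 control arrays (log2 RMA, horizontal axis) for 22746 probe sets. Red points are the 2812 called higher, blue points the 5347 called lower and grey points those not called, and the dotted line marks the level of 5. Large rises crowd at low control levels and falls spread over all levels above the background.

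Control array 3 bears on the count of strong rises. Of the 1075 probe sets called higher with a fold of at least 2, 238 belonged to the 370 raised on that array and 789 had 3 control arrays within 1 unit of each other. Leaving out each of the 6 arrays in turn gave between 981 and 1197 such rises and between 662 and 849 falls.

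Many of the strongest changes fell on genes known here only by a locus code, to which no role is given. Some may belong to families counted below, since the lists were matched by name. AT3G12510 read 5.23, 5.09 and 5.12 in the controls and 9.75, 9.92 and 9.49 after salt, 4.57 higher (SE 0.14, adjusted p = 9.32e-15). AT4G28140 read 4.52, 4.53 and 4.30 in the controls and 9.52, 9.24 and 9.0 after salt, an apparent 4.80 over a background level. AT2G15780 went from 4.63, 4.68 and 4.51 to 9.59, 9.50 and 9.83, an apparent 5.03. In each of the 3 the groups lay more than 4 units apart. Among abundant transcripts, with a mean of both groups above 11, AT3G09440 rose from 10.16, 10.36 and 10.26 to 12.53, 12.49 and 12.43 (2.23, SE 0.09), AT5G62350 by 1.18 and ZW9 by 1.19. Among genes still above 5 after salt, the lowest differences were those of AT4G22460, which read 8.36, 8.50 and 8.58 in the controls and 6.13, 5.18 and 5.48 after salt (-2.88, SE 0.21, adjusted p = 3.30e-09), and of AT3G18450 (-2.66) and AT1G70880 (-2.52). Abundant transcripts that fell included AT5G14120 (-1.95), AT3G01190 (-1.71) and AT4G30170 (-1.66).

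Late embryogenesis abundant (LEA) proteins and dehydrins, hydrophilic proteins that accumulate in drying cells, rose where they changed. Of 13 measured members 7 rose and 0 fell (8 and 0 at an unadjusted p under 0.05), and the median difference was 0.35, beside -0.08 over all probe sets. Both group means lay under 5 in 6 of the 13. The dehydrin gene LTI30 rose from 11.17, 10.91 and 11.27 in the controls to 13.50, 13.51 and 13.45 after salt (2.37, SE 0.15, adjusted p = 4.66e-10), and the 3 salt arrays nearly coincided. COR47, a second dehydrin gene, rose from 11.77, 11.92 and 12.27 to 13.20, 13.40 and 13.01 (1.22, SE 0.15). LEA4-5, silent or nearly so in control roots at 3.91, 3.91 and 4.07, read 8.50, 8.79 and 8.13 after salt, an apparent 4.50. Salt and control arrays did not overlap in any of these. COR15A, whose product protects membranes in the chloroplast, read 5.32, 5.07 and 4.54 and then 6.97, 7.52 and 6.81, an apparent 2.13, and LEA18 remained below 5 in both groups at 3.49, 3.48 and 3.26 and 4.67, 4.56 and 4.40. The other 2 risers, AT2G44060 (0.34) and AT2G46140 (0.41), moved little. COR15B, the neighbour copy of COR15A, stayed near the background at 3.99, 4.31 and 4.22 and 4.09, 4.42 and 4.16 (0.05, adjusted p = 0.867). Among other stress-protection genes, named after their values were seen, TIL, which encodes a temperature-induced lipocalin, rose by 1.1 and SAT32, named for salt tolerance, by 1.21.

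Genes for chaperones and their helpers mostly rose. Of 7 measured members of the heat shock list 4 rose and 1 fell (median 0.91). Fes1A, a co-chaperone that keeps cytosolic HSP70 from being degraded, read 6.92, 6.64 and 6.59 in the controls and 9.82, 9.94 and 9.74 after salt (3.11, SE 0.22, adjusted p = 2.87e-09). AT5G48570 (ROF2), a peptidyl-prolyl isomerase that binds HSP90, read 5.60, 5.38 and 5.47 and then 7.93, 8.38 and 7.38 (2.41, SE 0.30). Hsp70-2 rose by 1.07 and the small heat shock gene ATHSP22.0 by an apparent 0.91. Fes1A's relatives differed from it: Fes1C fell from 8.09, 7.91 and 7.93 to 7.24, 7.21 and 7.47 (-0.67), and Fes1B was at -0.29 without a call. Hop3, which links HSP70 to HSP90 and was named after its values were seen, rose from 5.32, 4.96 and 5.31 to 8.14, 8.60 and 7.91 (3.02, SE 0.29). BZIP60, a transcription factor of the unfolded protein response in the endoplasmic reticulum, rose from 8.88, 8.97 and 9.33 to 10.17, 10.61 and 10.23 (1.27, SE 0.22, adjusted p = 0.000133). Its partners in that response moved less. BZIP28 was at 0.31, a call that was lost without control array 1 (0.27), control array 2 (0.24) or 3 h array 2 (0.24). BZIP17 was at 0.24, lost without control array 1 (0.18) or 3 h array 2 (0.19).

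The bZIP family as a whole split. Of 23 measured members 8 rose and 4 fell (median 0.01), beside 12.4% and 23.5% of all probe sets. BZIP53, one of the 2 genes disrupted in the mutant, read 10.37, 10.47 and 10.86 in the controls and 11.01, 11.12 and 10.87 after salt (0.43, adjusted p = 0.00208), with the lowest salt array just above the highest control array. bZIP44, a close relative in the same subgroup, rose from 9.36, 9.09 and 9.12 to 9.64, 9.94 and 9.68 (0.56). EEL, a bZIP factor known from seed maturation, rose by 0.76 and bZIP58 by 1.36 over scattered controls (5.90, 5.96 and 4.90). FD, known from the shoot tip where it acts in flowering, fell from 6.14, 6.48 and 5.98 to 5.47, 4.74 and 5.21 (-1.06), and AT2G21230 (bZIP30) fell by 0.50 on the log2 scale. The bZIP1 gene itself was not analysed here.

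Auxin genes included several strong risers. Auxin is the hormone that patterns root growth and starts lateral roots, and GH3 enzymes take it out of action by joining it to amino acids. Of 16 measured auxin genes 8 rose and 2 fell (median 0.30). GH3.3 was near the background in all 3 controls (4.70, 4.56 and 4.50) and read 10.12, 9.73 and 9.60 after salt, an apparent 5.23 (SE 0.19, adjusted p = 1.80e-13). Its relatives WES1 (GH3.5) and GH3.1 rose by 1.14 and 1.21, whereas GH3.17, also an auxin-conjugating enzyme, fell from 9.75, 9.83 and 9.68 to 9.26, 8.83 and 9.0 (-0.73). Of 7 measured Aux/IAA repressor genes 4 rose and 1 fell. IAA30 read 4.99, 4.38 and 4.96 in the controls and 8.54, 8.15 and 8.01 after salt, an apparent 3.46 (adjusted p = 1.18e-10), and IAA33 and IAA29 were higher by an apparent 0.85 and 0.67 over controls under 5. YUC4, one of the monooxygenases that make auxin, rose from the background (3.92, 3.76 and 3.59) to 6.63, 6.14 and 6.07. It was the one riser among 4 measured YUC genes. Other genes tied to auxin and lateral roots were also higher and are named after their values were seen. LBD29, which acts in lateral root initiation, read 6.09, 5.88 and 5.97 in the controls and 9.08, 8.41 and 8.37 after salt (2.64, SE 0.24, adjusted p = 4.41e-08). LBD16, its partner gene in the same process and the one pericycle marker named in the gene table, read 6.74, 6.75 and 6.65 and then 8.72, 8.04 and 8.02 (1.55, SE 0.19). The homeodomain gene HAT2 rose by 1.83, the kinase gene WAG2, which directs auxin efflux carriers, by 1.3, and the purine transporter gene AZG1 by 1.80. In GH3.3, LBD29, LBD16 and HAT2 alike, salt array 1 was the highest of the 3 salt arrays. Of 9 measured response regulators and gibberellin receptors 0 were called by limma and 0 had an unadjusted p under 0.05, and the differences ran from -0.21 to 0.27. In 5 of the 9 both group means lay under 5.

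A second group of risers comprised genes known to respond within minutes to touch, wounding or calcium, and these were high on control array 3 as well. Calmodulin-like proteins sense calcium, and 5 of 8 measured genes rose while 2 fell (median 1.46), with 4 of the 8 in the set raised on control array 3. Without control array 2 the risers numbered 3. CML37 read 3.38, 3.63 and 8.75 in the controls and 9.20, 10.65 and 10.04 after salt, a difference of 4.71 (SE 1.04, adjusted p = 0.00118) and an apparent 6.46 without control array 3. CML38, at 6.92, 8.04 and 10.95 and 10.59, 11.38 and 10.76, overlapped between the groups, and its call (2.27, and 3.43 without control array 3) was lost without control array 1 (1.42) or 2 (1.97). The controls of both genes thus spanned 4 units or more. AT1G76640 (CML39) rose by 2.67 and CML23 by 2.30, or by an apparent 3.40 and by 2.90 without control array 3. CML43 moved the other way on all arrays, from 8.29, 8.41 and 8.57 to 7.02, 6.85 and 7.28 (-1.37, adjusted p = 1.25e-08), and CML30 fell by 0.67 on the log2 scale.

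The same pattern appeared in some stress transcription factors and ubiquitin ligases. Of the 4 AP2/ERF genes matched by name 1 rose (ORA47) and 1 fell (tny), and members known only by a locus code may be missing. The set raised on control array 3 held 1 of these 4 and 2 of 7 measured WRKY genes. ORA47, an AP2/ERF factor that turns on jasmonate synthesis, read 5.15, 4.73 and 9.99 in the controls and 10.48, 11.45 and 10.90 after salt. Its difference was 4.32 (SE 1.04, adjusted p = 0.00252), or 3.38 and 3.59 without control arrays 2 and 1 and an apparent 6.00 without control array 3. STZ, a zinc finger repressor of the salt response, read 7.75, 9.77 and 12.23 and then 11.79, 12.54 and 12.37, and each control array differed from the next by about 2 units or more. Its difference of 2.31 was 3.47 without control array 3, and its call was lost without control array 1 (1.23). WRKY53 and WRKY22, factors of senescence and immune signalling, rose by 2.29 and 1.82, and by 3.14 and 2.32 without control array 3. WRKY47 fell from 6.94, 7.15 and 7.19 to 6.42, 6.06 and 6.35 (-0.82), and in all 3 of 7 measured WRKY genes rose and 1 fell. Of 9 measured U-box ubiquitin ligases, some of which are known to restrain drought and immune signalling, 6 rose and 0 fell (also at an unadjusted p under 0.05), with a median of 0.67 and 4 members in the set raised on control array 3. PUB19 read 5.36, 5.71 and 7.70 in the controls and 9.93, 10.34 and 9.71 after salt (3.74, adjusted p = 6.95e-06, and 4.46 without control array 3). PUB24 and PUB23 rose by 2.29 and 2.34, or by 2.72 and 3.21 without that array. PUB25 and PUB26, whose 3 control arrays lay close together, rose by 0.87 and 0.67. PUB22, at 7.67, 7.87 and 9.61 and 8.21, 9.67 and 8.61, overlapped and was not called (0.44, adjusted p = 0.541, and 1.06 without control array 3). Outside these lists, GRX480, a glutaredoxin, read 4.53, 4.39 and 8.23 and then 8.85, 10.24 and 9.61 (3.85, and an apparent 5.11 without control array 3), and AT5G52050 (DTX50), a detoxification efflux carrier, rose by 4.07, or 5.16 without that array.

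**Figure D2:**
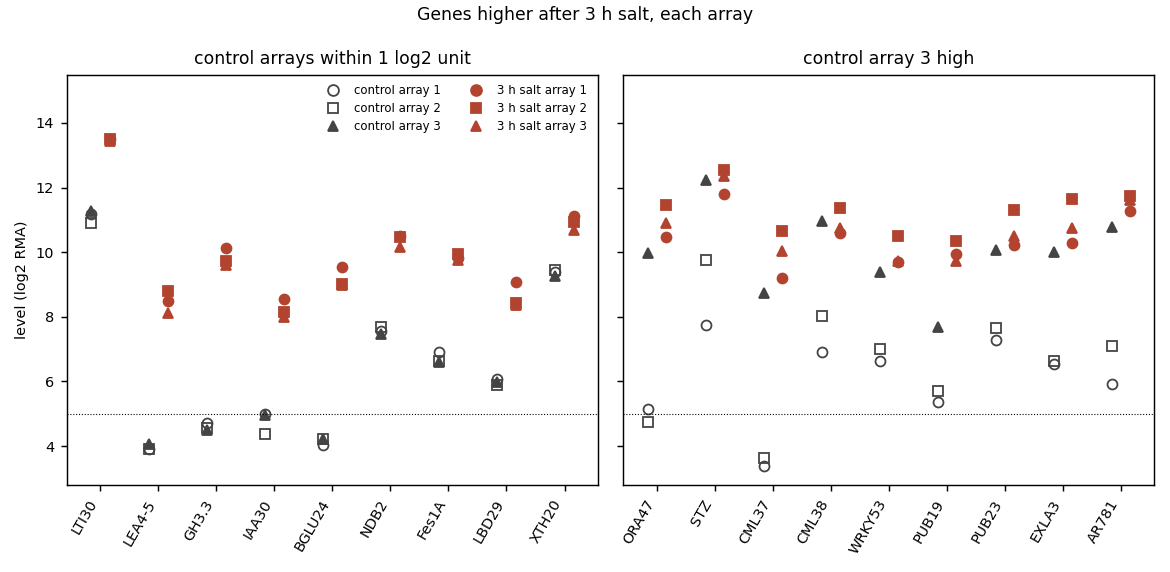
Level on each control and salt array (log2 RMA, vertical axis) for 9 risers with control arrays within 1 unit of each other (left) and 9 risers that were high on control array 3 (right); symbols give the array number, open or grey for controls and red for 3 h salt, and the dotted line marks 5. On the left the controls form 1 cluster below the salt arrays, while on the right control array 3 (grey triangle) lies between the other controls and the salt arrays or, for STZ and CML38, among the salt arrays.

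Enzymes of secondary metabolism and detoxification changed in both directions. Beta-glucosidases free aglycones from their stored sugar conjugates, and 5 of 22 measured genes rose. Both group means lay under 5 in 11 of the 22. BGLU24 read 4.02, 4.22 and 4.22 in the controls and 9.55, 9.03 and 8.98 after salt, an apparent 5.03 (SE 0.44, adjusted p = 3.39e-08). BGLU46, which splits the glucosides of lignin precursors, rose from 8.15, 7.97 and 8.53 to 9.73, 10.02 and 9.81 (1.64), BGLU40 by an apparent 2.08 and BGLU25 by 1.14. The fifth riser, BGLU27, lost its call without 3 h array 2 (1.40) or 3 (1.33). PYK10, the abundant beta-glucosidase of root endoplasmic reticulum bodies, was at 12.51, 12.17 and 12.32 in the controls and 12.59, 12.43 and 12.30 after salt (0.11, adjusted p = 0.517). One beta-glucosidase gene was called lower, and 0 to 3 were when an array was left out (0 without 3 h array 2, 2 without control array 1 and 3 without 3 h array 1).

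Glycosyltransferases, which do the reverse reaction, had 6 risers and 10 fallers among 52 measured genes, both shares below those of all probe sets. The fallers numbered 6 without control array 1 or 3 h array 2. UGT87A2 rose from 5.39, 4.79 and 5.43 to 7.10, 7.18 and 7.44 (2.03, adjusted p = 7.01e-07), and UGT76C1, which inactivates cytokinin, rose by 0.77. UGT72E1 and UGT72E3, which attach glucose to lignin precursors, fell from 8.14, 8.09 and 8.05 to 7.05, 6.80 and 6.87 (-1.18) and from 7.44, 7.43 and 7.16 to 6.31, 5.97 and 6.01 (-1.25). Their relative UGT72E2 was at 0.18 (adjusted p = 0.316). In the UGT71C group 4 of 5 measured genes fell, led by UGT71C1, from 10.19, 10.36 and 10.13 to 9.22, 8.64 and 8.63 (-1.40). Tau-class glutathione transferases, which couple glutathione to toxic compounds, were divided, with 3 of 11 higher and 4 lower. GSTU25 rose from 5.78, 5.34 and 4.96 to 7.46, 7.93 and 7.70 (2.34), while GSTU28, an abundant transcript in control roots, fell from 9.98, 10.23 and 10.46 to 8.55, 8.24 and 8.25 (-1.88, SE 0.16, adjusted p = 3.26e-08) and GSTU27 fell by 1.42 on the log2 scale. Of 24 measured cytochrome P450 genes 8 fell and 1 rose, beside 23.5% and 12.4% of all probe sets, and in 13 of them both group means lay under 5. CYP71B23 went from 8.06, 8.20 and 8.43 to 6.62, 6.11 and 6.19 (-1.93, adjusted p = 1.01e-06), and CYP71B29 and CYP71B34 both fell by 1.15 on the log2 scale. CCR2, a cinnamoyl-CoA reductase of the lignin pathway, rose from 6.56, 6.40 and 7.77 to 9.87, 10.45 and 10.50 (3.36, and 3.79 without control array 3), and it was the only one of 7 measured lignin and phenylpropanoid genes with a call, although 2 were called without 3 h array 2. Peroxidases of class III, which act on the wall, had 3 risers among the 7 matched by name, led by AT5G64120 (PRX71) at 1.80 and AT2G41480 (PRX25) at 0.87. Members known only by a locus code may be missing from this count. Named after their values were seen, scpl30, a serine carboxypeptidase-like gene, rose from 3.54, 3.83 and 4.14 to 9.30, 7.92 and 8.54 (an apparent 4.75), NAMT1, a nicotinate methyltransferase, by an apparent 2.89, and AT3G13610 (F6'H1), which makes coumarins, fell from 10.39, 10.60 and 10.44 to 9.79, 9.55 and 9.06 (-1.01).

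Root hair genes fell, and genes of wall loosening changed in both directions. All 4 measured root hair genes were called lower (median -1.76). EXPA7, an expansin of root hair cells, read 8.00, 8.20 and 8.49 in the controls and 7.01, 6.31 and 6.24 after salt (-1.71, SE 0.25, adjusted p = 2.03e-05). EXPA18, its close relative, read 7.31, 7.65 and 7.73 and then 6.11, 5.77 and 5.37 (-1.81, SE 0.19). XTH26, a xyloglucan-modifying enzyme of root hairs, went from 6.53, 6.96 and 7.14 to 4.50, 4.51 and 4.12, an apparent -2.50, and SCN1, which restricts hair outgrowth to 1 site per cell, fell by 0.27 on the log2 scale. The groups overlapped in 0 of the 4. In whole roots, fewer cells of a type and less RNA per cell cannot be told apart. Of 29 measured expansin and XTH genes 5 rose and 8 fell, beside 12.4% and 23.5% of all probe sets. These 8 falls include EXPA7, EXPA18 and XTH26, already counted as root hair genes. The 3 expansin-like A genes formed most of the rising side. EXLA2, with its controls at 5.42, 5.52 and 6.25, read 7.45, 8.18 and 7.27 after salt (1.90, adjusted p = 0.000138). EXLA3 read 6.54 and 6.63 on control arrays 1 and 2, close to 10 on control array 3 and 10.29, 11.64 and 10.75 after salt. Its difference was 3.17 (SE 0.72, adjusted p = 0.00158), or 2.58, 2.63 and 4.31 without control arrays 1, 2 and 3. EXLA1 rose by 1.88 (2.58 without control array 3), a call lost without control array 1 (1.48). XTH20 was high and steady in the controls (9.38, 9.44 and 9.27) and rose to 11.11, 10.95 and 10.68 (1.55, adjusted p = 1.28e-08). XTH33, XTH16 and XTH21 fell by 1.69, 1.40 and 1.27 on the log2 scale.

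Of 51 measured wall synthesis genes 16 fell and 5 rose, beside 23.5% and 12.4% of all probe sets, and in 16 of the 51 both group means lay under 5. Of the 16 falls 9 lay in the trichome birefringence-like (TBL) family, whose known members acetylate wall polymers. These 9 came from 23 measured TBL genes. TBL21 went from 6.29, 6.85 and 6.76 to 5.04, 5.07 and 4.91 (-1.63) and TBL34 from 7.47, 7.70 and 7.71 to 6.65, 6.30 and 6.51 (-1.14, adjusted p = 3.93e-07). Among glycosyl hydrolases of family 9, which trim cellulose, 3 of 15 rose and 4 fell. GH9B8 rose from 8.71, 8.40 and 8.29 to 10.61, 10.25 and 10.07 (1.85) whereas GH9C1 fell from 7.51, 7.72 and 7.86 to 6.37, 6.01 and 5.85 (-1.62) and GH9B17 fell below 5 (an apparent -1.59). CSLC04, which makes the xyloglucan backbone, rose from 8.48, 8.82 and 9.94 to 10.10, 11.07 and 10.48 (1.47, and 1.90 without control array 3). Of 6 measured pectin genes 3 fell. ATPMEPCRD, a pectin methylesterase, read 7.14, 7.57 and 7.68 in the controls and 5.54, 5.15 and 5.26 after salt (-2.15, SE 0.18, adjusted p = 2.74e-08), and PMEPCRF fell by 1.0 on the log2 scale. RALFL27, a gene for a peptide of the RALF family, was named after its values were seen and fell from 6.90, 6.99 and 6.79 to 5.74, 5.29 and 5.43 (-1.40).

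**Figure D3:**
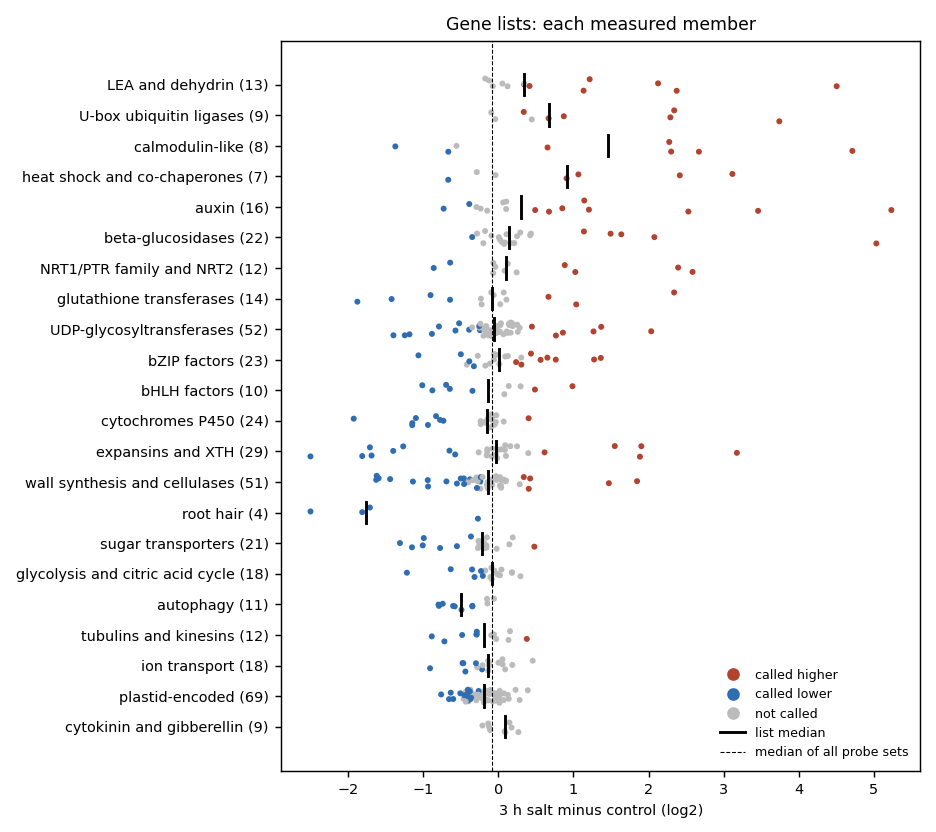
Difference between 3 h salt and control (log2, horizontal axis) for each measured member of 22 gene lists, with the number of members in brackets. Red points are called higher, blue called lower and grey not called, the black bar is the list median and the dashed line the median of all probe sets (-0.08). LEA and dehydrin genes have no blue point, and root hair, autophagy and ion transport genes have no red one.

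Of 21 measured sugar transporter genes 7 fell and 1 rose (median -0.22), beside 23.5% and 12.4% of all probe sets, and in 11 of the 21 both group means lay under 5. SFP1, a member of the monosaccharide transporter family, read 9.15, 9.11 and 9.31 in the controls and 8.00, 7.71 and 7.93 after salt (-1.31, SE 0.14, adjusted p = 3.69e-07). TMT1, which loads hexoses into the vacuole, fell from 9.80, 10.31 and 10.26 to 9.22, 9.03 and 9.16 (-0.99), and TMT2 by 0.36 on the log2 scale. Of 16 SWEET sugar facilitator genes 4 fell: SWEET2, a vacuolar member of roots, from 7.86, 7.67 and 7.74 to 6.86, 6.52 and 6.87 (-1.01), SWEET11 from 6.30, 6.14 and 7.01 to 5.46, 5.22 and 5.33 (-1.15), SWEET16 by 0.78 and SWEET17 by 0.55 on the log2 scale. The 1 riser, SWEET14 (0.48), lost its call without 3 h array 2 (0.38). AKINBETA1, a subunit of the energy-sensing kinase SnRK1, fell from 9.73, 10.02 and 9.92 to 9.03, 9.07 and 9.38 (-0.73, adjusted p = 0.000246). Of 11 measured autophagy genes 8 fell and 0 rose, the same counts as at an unadjusted p under 0.05 (median -0.49). The ATG8 proteins coat the forming autophagosome, and 7 of their 9 measured genes fell. ATG8D read 8.73, 8.65 and 8.72 and then 7.88, 7.86 and 7.97 (-0.80, SE 0.08), APG8A 9.98, 9.96 and 9.93 and 9.31, 8.94 and 9.25 (-0.79), and ATG8F 10.33, 10.22 and 10.24 and 9.62, 9.30 and 9.64 (-0.74). The spread within each group was small beside these shifts. ATG3, the enzyme that joins ATG8 to lipid, fell by 0.35 on the log2 scale, and ATG8H was at -0.15 (adjusted p = 0.417).

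Mitochondrial and central carbon genes included both falls and rises, beside 23.5% of all probe sets called lower and 12.4% called higher. Of 18 measured genes of glycolysis and the citric acid cycle 6 fell and 0 rose (7 and 2 at an unadjusted p under 0.05), but without control array 2 the counts were 3 and 1. SDH1-2, a minor copy of the flavoprotein subunit of succinate dehydrogenase, fell from 6.36, 6.40 and 6.58 to 5.33, 5.12 and 5.25 (-1.22, adjusted p = 7.87e-06), whereas the major copy SDH1-1 was at 9.70, 9.85 and 9.57 and 9.83, 9.96 and 9.88 (0.18, adjusted p = 0.0652; with control array 2 left out it was called, at 0.25). ACLA-3, a subunit of the enzyme that turns citrate into acetyl-CoA, fell from 9.87, 9.97 and 9.75 to 9.30, 9.20 and 9.19 (-0.63). In contrast NDB2, an alternative NADH dehydrogenase on the outer face of the inner mitochondrial membrane, rose from 7.57, 7.67 and 7.48 to 10.49, 10.48 and 10.16 (2.80, SE 0.20, adjusted p = 2.63e-09). Its relative NDB1 fell from 7.58, 7.83 and 7.67 to 7.20, 7.35 and 7.23 (-0.43). CYTC-2, one of the cytochrome c genes, was named after its values were seen and rose by 1.50. Breakdown of branched-chain amino acids had 2 risers and 4 fallers of 10. The firmest was ALDH6B2, which acts late in valine breakdown and fell from 10.60, 10.85 and 10.75 to 10.09, 9.97 and 10.27 (-0.62, adjusted p = 6.80e-05). Without 3 h array 1 the fallers numbered 1, and without control array 3 or 3 h array 3 the risers numbered 1.

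Sulfur and nitrogen transport genes showed single strong movers. APS3, an ATP sulfurylase that activates sulfate, rose from 7.19, 7.12 and 8.12 to 10.65, 10.57 and 10.46 (3.08, SE 0.29, adjusted p = 1.09e-07), although its relative APS4 was at -0.11 (adjusted p = 0.386). OASA2, related to the enzymes that make cysteine, fell from 7.84, 7.77 and 7.96 to 6.54, 6.27 and 6.38 (-1.46). Of 12 measured nitrate and peptide transporter genes 4 rose and 2 fell. GTR1 and GTR2, which carry the sulfur-rich defence compounds called glucosinolates, rose from 7.75, 7.62 and 8.78 to 10.70, 10.71 and 10.50 (2.58, and 2.95 without control array 3) and from 9.71, 9.67 and 10.09 to 10.80, 10.67 and 10.65 (0.88). AT1G59740 (NPF4.3) rose by 2.39 and AT1G33440 (NPF4.4) by 1.02, while AT1G72125 (NPF5.13) and AT1G68570 (NPF3.1) fell by 0.86 and 0.64 on the log2 scale. Basic helix-loop-helix factors of the iron-deficiency response mostly fell. The genes bHLH115, bHLH104 and bHLH121 went from 9.72, 9.73 and 9.68 to 8.97, 8.61 and 8.90 (-0.88), from 9.58, 9.64 and 9.63 to 8.96, 8.70 and 9.10 (-0.70) and from 8.75, 8.71 and 8.77 to 8.05, 8.15 and 8.09 (-0.65). ILR3, which works with them, fell by 0.34 on the log2 scale, and BHLH101 was under 5 in both groups. PYE, a repressor in the same network, rose by 0.99, and bHLH34 was also called higher by limma (adjusted p = 0.00983). In all 5 of 10 measured bHLH genes fell and 2 rose. Metal transporter and metallothionein genes, 3 of 6 lower and 0 higher (the same at an unadjusted p under 0.05), had 1 faller without control array 2 or 3 h array 2.

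The ion transport list held genes for glutamate receptor-like channels (8), cation and proton exchangers of the CHX family (6) and proton pump subunits (4). Of 18 measured members 6 fell and 0 rose (7 and 1 at an unadjusted p under 0.05), beside 23.5% and 12.4% of all probe sets, and the median was -0.13. In 9 of the 18 both group means lay under 5. With array weights, or with only the 12 wild-type arrays or only the 6 arrays compared in the fit, 1 rise was called. The tonoplast proton pump subunit gene VHA-A3 read 9.39, 9.55 and 9.63 in the controls and 9.13, 9.08 and 8.96 after salt (-0.47, SE 0.09, adjusted p = 0.000332), and VHA-A2, its partner at the same membrane, fell by 0.30 on the log2 scale. CHX16, a cation and proton exchanger, fell from 6.94, 6.55 and 6.71 to 5.83, 5.73 and 5.92 (-0.91), the only one of 6 measured CHX genes with a call. The glutamate receptor-like channel gene GLR3.3, known from wound signalling, fell by 0.44 on the log2 scale. SOS1, NHX1 and HKT1, the best known sodium transporter genes, were not analysed here.

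Of 12 measured tubulin and kinesin genes 6 fell and 1 rose, and 3 fell without control array 1. TUB1 fell from 9.50, 9.70 and 9.51 to 8.77, 8.49 and 8.79 (-0.89, adjusted p = 2.69e-05) and TUB5 from 10.10, 10.10 and 10.05 to 9.38, 9.28 and 9.45 (-0.72), while TUB7 rose by 0.38. IQD19 and SP1L4, of microtubule-binding families and named after their values were seen, fell by 1.34 and 1.29 on the log2 scale. HIS1-3, a linker histone gene known to respond to drought, read 8.19, 7.57 and 8.47 and then 5.51, 5.94 and 7.25 (-1.84, SE 0.46), with both groups scattered but not overlapping, and HON4 fell by 0.71 on the log2 scale. AUR1, a mitotic kinase, was the 1 faller of 10 cell cycle genes (-0.52), which had 2 without control array 3. Of 69 probe sets for genes of the plastid genome 14 fell and 0 rose (20 and 1 at an unadjusted p under 0.05; median -0.19), a share below the 23.5% of all probe sets, and 8, 9 and 5 fell without control array 1, control array 3 and 3 h array 2. Among 9 nuclear photosynthesis genes LHCB4.1 fell from 8.04, 8.06 and 8.25 to 7.50, 7.59 and 7.59 (-0.56), and PSAN fell by 0.65 on the log2 scale but was not called without control array 3 (-0.49) or 3 h array 1 (-0.46). Of 6 antioxidant genes 3 rose and 1 fell, among the risers the ascorbate peroxidase gene SAPX from 9.16, 9.16 and 8.95 to 9.48, 9.52 and 9.51 (0.41) and the glutathione reductase gene GR1 (0.37), while CCS, the copper chaperone of superoxide dismutase, fell by 0.57 on the log2 scale. Of 17 pathogenesis-related genes 5 fell, beside 23.5% of all probe sets, led by PR-1-LIKE (-1.24), and the chitinase gene ChiC rose (0.90).

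The 3 h state was then set directly against 1 h and 6 h in wild-type roots. Between 1 h and 3 h, 1903 probe sets were called (8.37%), 992 of them higher at 3 h (4.36%) and 911 lower (4.01%). Between 3 h and 6 h the calls came to 3388 (14.9%), 1540 of them higher at 6 h (6.77%) and 1848 lower (8.12%). These tests use the 3 h arrays that the comparison with the control also uses. By limma 0 of the 8 calmodulin-like, 7 WRKY and 9 U-box genes described above were called higher at 3 h than at 1 h (0, 2 and 2 at an unadjusted p under 0.05). This is close to the 4.36% of all probe sets and does not set these genes apart. Of the 8 calmodulin-like genes 2 were called lower at 3 h (3 at an unadjusted p under 0.05), and of the WRKY and U-box genes 0. ORA47 read 11.15, 10.28 and 11.55 at 1 h, beside 10.48, 11.45 and 10.90 at 3 h, and 1 h array 3 lay above the other 1 h arrays by more than 1 unit in 232 probe sets. The 370 probe sets raised on control array 3 had medians of 9.06, 8.62 and 10.02 on the 3 arrays of 1 h. Of 13 LEA genes 4 were higher at 3 h than at 1 h and 0 lower, of 16 auxin genes 4 and 0, and of 7 heat shock genes 4 and 1. LEA4-5 went from 5.66, 4.80 and 5.86 at 1 h through its 3 h values to 10.91, 9.80 and 10.69 at 6 h, 3.03 higher at 3 h than at 1 h (adjusted p = 7.52e-05) and 2.00 higher again at 6 h (adjusted p = 0.00239). GH3.3 read 6.37, 6.71 and 6.98 at 1 h, 3.13 below 3 h (adjusted p = 4.20e-09), and was 1.49 higher at 6 h than at 3 h (adjusted p = 2.67e-05). NDB2 read 8.49, 8.12 and 8.78 at 1 h and 11.59, 11.36 and 11.30 at 6 h, and both steps were called (1.91 and 1.04). Each of these 3 genes thus rose over both intervals. Fes1A and LBD29 rose from 1 h to 3 h (1.83 and 1.48) and were not called afterwards (0.45, adjusted p = 0.193, and 0.60, adjusted p = 0.0984).

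A few genes peaked at 3 h among the times sampled. YUC4 was 1.20 higher at 3 h than at 1 h (adjusted p = 0.00137) and fell to 5.08, 5.05 and 4.62 by 6 h (-1.37, adjusted p = 0.000254). GH9B8 read 9.16, 9.11 and 9.35 at 1 h and 9.37, 9.46 and 9.36 at 6 h, so that 3 h was higher by 1.11 than 1 h and 6 h lower by 0.91 than 3 h. Of 21 sugar transporter genes 3 were lower at 3 h than at 1 h and 1 higher. SWEET2 was lower at 3 h than at 1 h (-0.61, adjusted p = 0.0169) and stood at 7.80, 8.07 and 7.78 at 6 h, 1.14 above 3 h (adjusted p = 5.26e-05). SFP1 and SWEET11 were also higher at 6 h than at 3 h (0.48 and 0.67), as were 7 of the 21 sugar transporter genes in all, with 0 lower (9 and 3 at an unadjusted p under 0.05). Of 51 wall synthesis genes 12 were lower at 6 h than at 3 h and 1 higher. TUB1 fell from 3 h to 7.63, 7.89 and 7.52 at 6 h (-1.0). Of the 4 root hair genes 1 was lower at 3 h than at 1 h, and XTH26, at 4.44, 4.83 and 4.95 after 1 h, was not called (-0.36, adjusted p = 0.296). The number called between 1 h and 3 h fell to 927 without 3 h array 1, to 1012 without 1 h array 2, to 1046 without 1 h array 1 and to 1141 without 3 h array 2, and was 2221 without 1 h array 3, while that between 3 h and 6 h to 2057 without 3 h array 3.

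**Figure D4:**
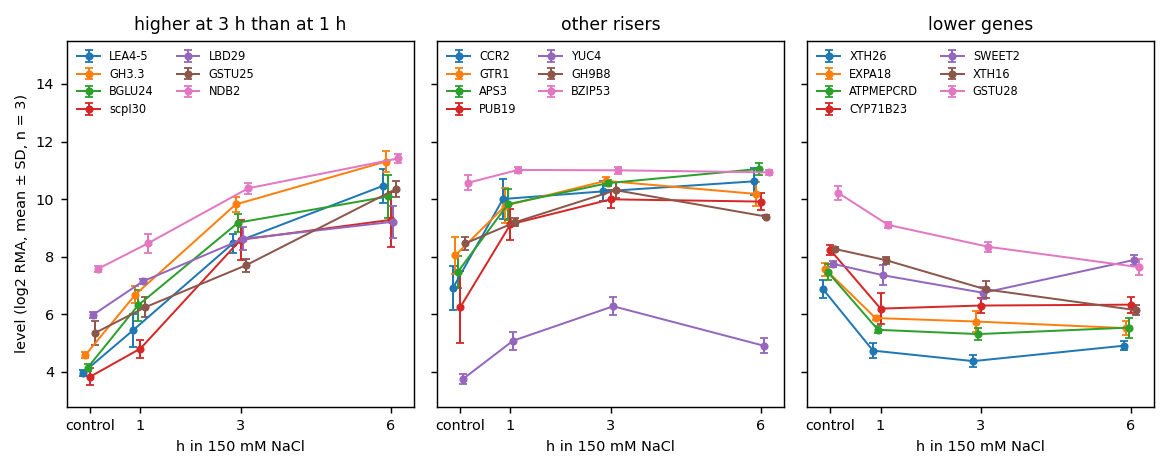
Mean level ± SD of 3 wild-type arrays (log2 RMA, vertical axis) in the control and at each time in 150 mM NaCl (h, horizontal axis) for genes higher at 3 h than at 1 h (left), other risers (middle) and lower genes (right). LEA4-5, GH3.3 and NDB2 climb through 6 h, YUC4 and GH9B8 are highest at 3 h, and SWEET2 is lowest at 3 h.

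The bzip1/bzip53 mutant gave a second comparison of 3 h salt with control on 6 other arrays. There the calls came to 10342 probe sets (45.5%), 3957 of them rises (17.4%) and 6385 falls (28.1%). With a fold of at least 2, 1591 were higher (6.99%) and 1076 lower (4.73%). Of the 1075 strong risers of wild type, 997 were also strong risers of the mutant, which is 92.7% of the wild-type list and 62.7% of the mutant list, and 7 were called in the opposite direction. Of the 762 strong fallers of wild type, 645 were shared, 84.6% of the wild-type list and 59.9% of the mutant list, and 0 were opposite. The median difference of the 1075 was 1.71 in wild type and 2.24 in the mutant, and that of the 762 was -1.34 and -1.52. These probe sets were chosen by their wild-type values, so the wild-type medians are no measure independent of that choice. Without mutant control array 1, on which 215 probe sets lay more than 1 unit above both other mutant controls, 998 and 652 were shared. The 370 probe sets raised on wild-type control array 3 also varied here. Their median was 8.58 on mutant control array 1, against 7.64 and 7.14 on the other mutant controls. Mutant control array 1 also read 11.93 for 25S ribosomal RNA, against 12.63 and 12.52 on the other mutant controls, 1.40 for the 3' minus 5' actin difference, against 0.78 and 0.73, and 8.20 for the spiked-in control RNA dap, against 3.13 and 3.26. Their part in the results was not tested. In the mutant, LTI30 read 11.56, 11.10 and 10.94 in mutant controls and 13.94, 13.71 and 13.81 after 3 h (2.62), GH3.3 4.50, 4.80 and 4.69 and 10.91, 10.63 and 10.43 (an apparent 5.99), and EXPA18 7.64, 7.81 and 7.68 and 5.42, 4.88 and 5.37 (-2.49). NDB2 rose from 7.37, 7.43 and 7.59 to 11.04, 11.07 and 11.19 (3.64) and SFP1 fell by 1.1 on the log2 scale. The difference between the responses of the 2 genotypes was tested directly and was called for 331 probe sets (1.46%), 179 with a higher and 152 with a lower response in the mutant. For none of LTI30, GH3.3, EXPA18, NDB2 and SFP1 was it called (adjusted p = 0.629, 0.166, 0.217, 0.142 and 0.662). SIS, a salt-induced serine-rich gene, rose from 7.75, 7.68 and 7.81 to 8.50, 8.23 and 8.84 in wild type (0.78, lost without 3 h array 3 at 0.62) and from 6.89, 7.41 and 7.61 to 10.10, 9.87 and 10.09 in the mutant (2.72), and this difference was called (1.94, SE 0.33, adjusted p = 0.0117). AT3G10040 (HRA1), which attenuates the response to low oxygen, moved in opposite directions. It rose in wild type from 7.63, 7.51 and 6.71 to 8.93, 8.50 and 8.15 (1.25, lost without control array 3 at 0.96) and fell in the mutant from 7.76, 8.31 and 8.06 to 7.02, 6.97 and 7.19 (-0.99), a difference of -2.23 (adjusted p = 0.0286). That call was lost when any of 8 of the 12 arrays was left out, with values from -2.30 to -1.94. BZIP53 itself read 9.24, 9.17 and 9.16 in mutant controls and 8.90, 8.83 and 8.86 in the salt-treated mutant, below all wild-type arrays. This checks the genotype labels for BZIP53 only, and its signal in the mutant stayed above the level of 5. The bZIP1 gene was not checked. The number of probe sets called for the difference of responses was fragile. It was 45 without mutant 3 h array 1, 65 without wild-type control array 3, 98 without wild-type 3 h array 1 and 143 without mutant control array 1.

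**Figure D5:**
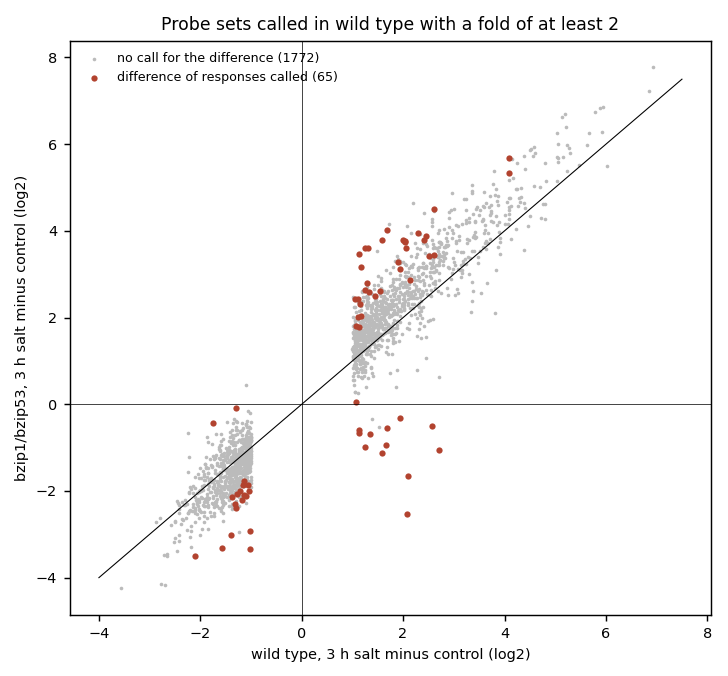
Difference between 3 h salt and control (log2) in the mutant (vertical axis) against wild type (horizontal axis) for the 1837 probe sets called in wild type with a fold of at least 2. The line marks equal responses and red points the 65 for which the difference of responses was called. The median of the rises is 1.71 in wild type and 2.24 in the mutant, and a few called rises of wild type lie below 0 in the mutant.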

How the data were processed

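The deposited values were log2 signals from 24 ATH1 arrays of root total RNA, labelled with the OneCycle kit per the labels' protocols. The submitters' processing notes name RMA, affy, limma and the TAIR9 build, without versions. Robust multi-array averaging corrects background, equalises the arrays' distributions and summarises probes, so a shift shared by all transcripts cannot be seen.

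From these values limma 3.58.1 in R 4.3.3 was fitted with 8 group means over 24 arrays (16 residual and 3.83 prior degrees of freedom), with empirical Bayes moderation. Benjamini-Hochberg adjustment ran over 22746 probe sets, at a threshold of 0.05. The procedure was tested on simulated data. Having 3 arrays per group limits the precision.

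The gene table pairs 13513 probe sets with 1 gene, 503 with several and leaves 8730 unnamed here. It was updated through Entrez gene identifiers looked up in RefSeq (13436 matched), and 11808 had a locus code only. Genes with several probe sets (147) were counted by probe set. No coordinates or sequences were used, since the builds differ.

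The members and the lists were chosen with earlier results of these data known. Lists are name patterns, counted where 3 or more members were measured (41 of 68). Genes were named by rule: called, not overlapping, with 1 gene, and the 20 highest and 20 lowest with both means at or above 5, the 10 highest and 6 lowest beyond that level, the 8 highest and 8 lowest at a level of 11 or more, up to 5 members of each list with the largest differences, BZIP53, the clock genes, and the 10 genes with the smallest p for the difference of responses. A further 75 genes were chosen after their values were seen, among them ARL, AT1G68570, AT2G21230, AT2G44060, AT2G46140, AT3G13610, ATG3, ATG8H, AZG1, BZIP17, BZIP28, COR15B, CYTC-2, DGL, GH3.17, HAT2, Hop3, IAA29, IAA33, ILR3, IQD19, LBD16, LBD29, NAMT1, OPCL1, PUB22, PYK10, QQS, RALFL27, SAT32, SDH1-1, SP1L4, STZ, SWEET14, SWEET17, TBL34, TIL, TMT2, UGT72E1, UGT72E2, UGT76C1, VHA-A2, WAG2, XTH16, XTH20, XTH21, XTH33, bZIP44 and scpl30. Replicate numbers did not pair the groups (correlations of deviations 0.34, -0.25 and -0.02). Alternatives were the array left out, weights, a replicate block, other normalizations, filters and thresholds.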

Additional observations from a re-analysis of the deposited data

Results flagged for a closer look

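Of the probe sets outside the comparison, the Affymetrix control for 25S ribosomal RNA read 12.71, 12.68 and 12.58 on the wild-type control arrays and 13.46, 13.23 and 13.39 after 3 h of salt, a difference of 0.70 with no overlap. It measures ribosomal RNA carried into the labelled sample, and its part in the results was not tested.

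The response at 3 h differed between mutant and wild type in the 10 named genes with the smallest p for this difference, by limma with Benjamini-Hochberg adjustment. The values are the mutant response minus the wild-type response. AT5G14230 read 7.82, 7.86 and 7.77 in wild-type controls and 7.96, 7.97 and 8.05 after salt, against 7.63, 7.38 and 7.36 and 9.17, 8.90 and 9.04 in the mutant, so that the responses differed by 1.40 (SE 0.15, adjusted p = 0.000169). AT2G26690 (NPF6.2), a gene of the nitrate and peptide transporter family, differed by 1.18 (adjusted p = 0.0016), with 1.31 in the mutant and 0.13 in wild type. The response of the mutant was also higher in AT1G72850 (1.27), AT4G23590 (1.72), AT5G05880 (0.78), AT1G63820 (1.1) and SIS (1.94). It was lower in AT3G27950 (-1.21), AT1G80320 (-1.93) and AT4G00670 (-1.15). Adjusted p for these 8 ran from 0.00273 to 0.0117. All 10 stayed called when any 1 of the 12 arrays was left out. Without mutant control array 1 they ran from -1.78 to 1.74, and without wild-type control array 3 from -1.82 to 1.91. The differences were chosen by their p and are not an independent check.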

How the results depend on the processing

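Leaving out 1 array at a time gave 6631 to 7391 called probe sets for 3 h salt against control (2316 to 2634 higher, 4315 to 4757 lower), 927 to 2221 between 1 h and 3 h, 2057 to 2931 between 3 h and 6 h, and 45 to 277 for the difference of responses. Of 281 called named genes none reversed under the alternatives run, and 59 of 360 named genes changed call in at least 1. A fold of at least 2 left 1837 called, 1075 higher and 762 lower. The other alternatives gave 5809 to 9591, the lowest at an adjusted p under 0.01 and the highest with array weights, and 33.8% to 37.8% of calls were rises, but 58.5% at a fold of at least 2. With a replicate block 8203, 1913, 3362 and 314 were called for the 4 comparisons in the order above, although the numbers did not pair the samples. Levels under 5 leave sizes uncertain, and 3 arrays a group set the precision. Promoter motif shares were not run, since no promoter sequences were used here. The cause of these changes was not tested.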

Other observations

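Genes outside the lists above also changed in roots after 3 h of salt, and were chosen after their values were seen. DGL, a plastid lipase related to jasmonate synthesis, was at 1.53, a call lost without 3 h array 2 (1.17), and OPCL1, which activates a jasmonate precursor, rose by 2.40, or 3.07 without control array 3. ARL, a gene of organ size control, rose from 8.54, 8.35 and 9.15 to 9.66, 10.05 and 9.90 (1.19). QQS, known for its effect on starch, fell from 5.56, 5.53 and 6.22 to 4.70, 5.0 and 4.59 (an apparent -1.0). Of 3 measured hypoxia genes 2 rose in wild type (CML38 and AT3G10040), 1 without any single control array, and 2 fell in the mutant.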
